A study of Homo sapiens with 6 samples.

Results

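Heat shock proteins are molecular chaperones that keep other proteins folded, and co-chaperones set when and where they act. In the HSP70 cycle, a J-domain protein delivers a client, ATP hydrolysis closes the chaperone on it, and a nucleotide exchange factor of the HSP110 or BAG family opens it again. Chaperonins enclose clients in a barrel, small HSPs hold unfolded proteins without using ATP, and the transcription factor HSF1 switches many of these genes on when unfolded proteins build up. Tumour cells with high protein synthesis, neuroblastoma among them, are known to lean on these systems.

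The genes described here were chosen by symbol: HSP70, HSP90, HSP40, HSP60, HSP10, HSP110 and small HSP genes, BAG proteins, chaperonin subunits and heat shock factors, without HSPA5. In RefSeq 165 symbols match that rule, pseudogenes included, and 25 of them had a probe set in the array annotation used here, with 39 probe sets in all. They stand among 14884 named genes and 53617 probe sets. The 25 comprised 13 genes of the HSP70 and HSP110 class, 3 small HSPs, 1 chaperonin (HSPD1), 6 BAG or other co-chaperones and 2 heat shock factors (HSF1 and HSF4). No probe set carried an HSP90 or DNAJ (HSP40) symbol of the rule, or that of a TCP1 or CCT chaperonin subunit, so those classes are not analysed here. TRAP1 and HSCB, outside the rule, are among the partners below. The brightest probe set stood for a gene with more than 1.

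RNA came from BE(2)-C_tetoff_KDM4C cells, a derivative of the human neuroblastoma line BE(2)-C in which a tet-off construct drives KDM4C, an enzyme that removes methyl groups from lysine 9 of histone H3. The 3 arrays without doxycycline hold cells in which the construct can be expressed, and the 3 arrays with doxycycline hold cells in which it is kept silent, all at day 6. All 6 carry the construct and grew in dialysed serum, and the labels do not say whether the derivative is 1 clone. No cells without the construct were analysed, so KDM4C induction and doxycycline withdrawal cannot be told apart.

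KDM4C itself was at 8.97, 9.08 and 9.02 without doxycycline, against 7.71, 7.77 and 7.80 with it (log2 expression values). The difference of 1.27 (SE 0.07, limma adjusted p = 0.0079) has the direction of the labels. Array medians lay between 3.94 and 3.96, and correlations over all probe sets were 0.991 to 0.993 within groups and 0.990 to 0.991 between them. Of 11 markers of noradrenergic neuroblastoma, 8 were named, and their mean per array was 9.95 to 10.04 without and 9.95 to 10.02 with doxycycline. Members of that list differed in both directions, TH and DBH at 0.34 and 0.28 and CHGA and CHGB at -0.40 and -0.34. None of the 8 passed the test, and the limma adjusted p of these 4 lay between 0.0853 and 0.244. The groups did not overlap in these 4 of 8 (50%), against 19.3% of all probe sets and 24.6% of named genes. The same 4 had an unadjusted limma p below 0.05, against 12.4% of all probe sets and 14.4% of named genes. Of the glial markers, SOX10 was at 3.81 without and 3.96 with doxycycline, at the 48.5th percentile of probe sets by level, and S100B was at 5.66 and 5.84, at the 71.9th percentile. The endothelial VWF and PECAM1 were between 2.98 and 3.12, below the median probe set. Of the immune list, CD68 was at 5.75 and 5.74 (71.9th percentile) and TYROBP at 3.35 and 3.35 (27.4th). Of the epithelial list, KRT18 was at 7.55 and 7.43 (85.0th), KRT8 at 4.72 and 4.79 (62.9th) and EPCAM at 4.25 and 4.20 (55.7th). Fibroblast markers had no named probe set.

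HSPA2 rose without doxycycline, and it was the only 1 of the 25 genes to pass the test. The 3 HSP110 nucleotide exchange factors HSPA4L, HSPH1 and HSPA4 had the most negative differences, with all arrays without doxycycline below all arrays with it, but none passed. The stress-inducible pair HSPA1A and HSPA1B, the abundant HSPB1, HSPD1 and HSPA9, the BAG proteins and HSF1 lay within 0.21 of 0 on the log2 scale. In limma, with Benjamini-Hochberg adjustment over all 53617 probe sets and a threshold of 0.05, 1 of 25 genes was higher and 0 were lower, where 0.248% and 0.0933% of all probe sets were called in these directions. At an unadjusted p below 0.05, 1 was higher and 4 were lower, against 6.7% and 5.73% of all probe sets. In either direction these were 5 of 25 (20%), against 12.4% of all probe sets and 14.4% of named genes. The groups did not overlap in 9 of the 25 (36%), against 19.3% of all probe sets and 24.6% of named genes. Of these 9, 3 were higher and 6 lower, against 10.2% and 9.09% of all probe sets. Over the 25 genes the median log2 difference was -0.06, against -0.002 over all named genes, and 15 of 25 (60%) were negative, against 50.6%. Among the 21 of them brighter than the median probe set, the median was -0.03 and 11 (52.4%) were negative.

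**Figure D1:**
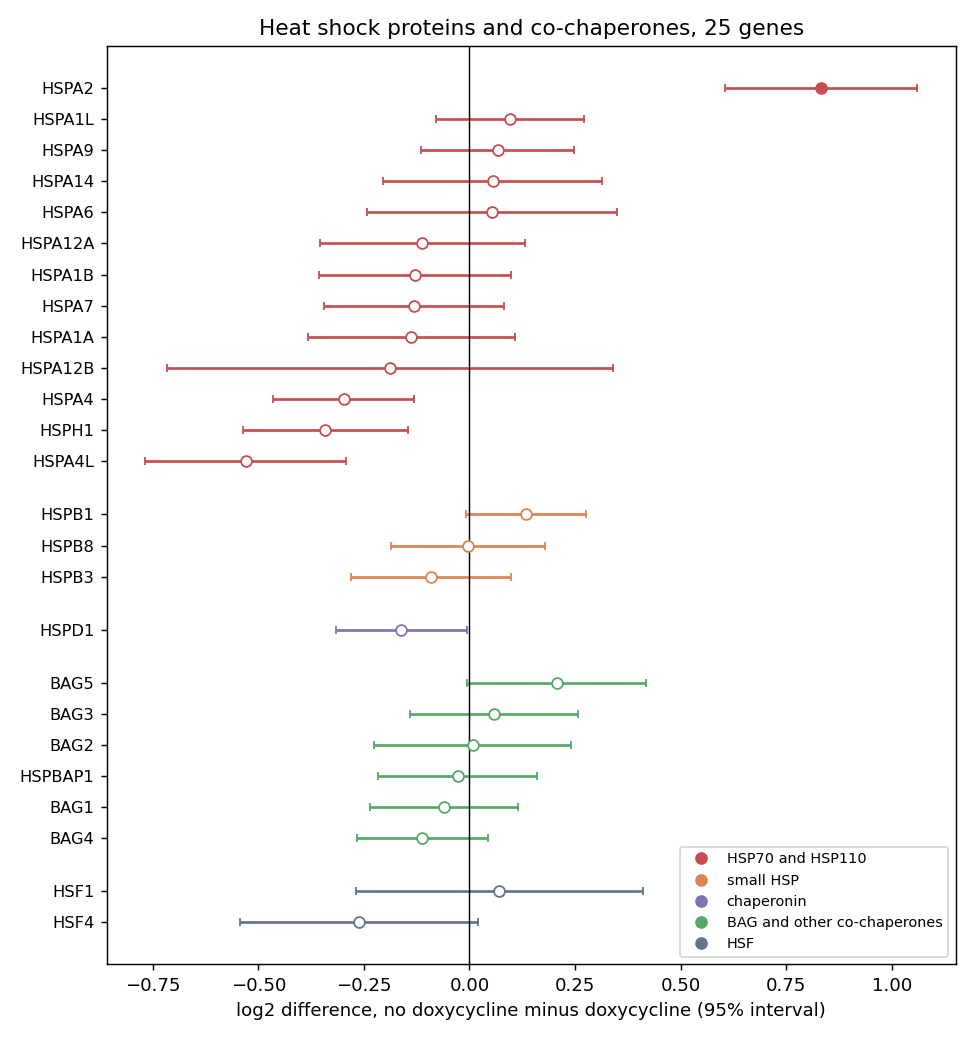
Log2 difference of each of the 25 genes, no doxycycline minus doxycycline, with the 95% interval of the limma fit, grouped by class. The filled point, HSPA2 at 0.83, passed the test, and the HSP110 genes HSPA4, HSPH1 and HSPA4L lie between -0.30 and -0.53.

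HSPA2 encodes an HSP70 that is abundant in the testis, where it is needed for spermatogenesis in mice, and that is also present in brain. It was at 7.14, 7.46 and 7.37 without doxycycline, against 6.51, 6.47 and 6.49 with it. The lowest array without doxycycline lay above the highest with it, and the 3 arrays with doxycycline were nearly alike (SD 0.02, against 0.17 without). The gene was 1.78-fold higher, at a log2 difference of 0.83 (SE 0.10, 95% interval 0.60 to 1.06, limma adjusted p = 0.034). By size of difference it ranked 290 among the 53617 probe sets. In a bulk sample, a change in the share of expressing cells and a change in RNA per cell cannot be told apart. The call rested on all 6 arrays. Leaving out the arrays without doxycycline in turn gave an adjusted p in limma of 0.0665 (replicate 1), 0.130 (replicate 2) and 0.157 (replicate 3). Leaving out those with doxycycline gave 0.147 (replicate 1), 0.137 (replicate 2) and 0.125 (replicate 3), while the difference kept to between 0.76 and 0.93. With any 1 array left out, only 0 to 15 of all probe sets passed, where 183 passed with all 6.

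The HSP110 branch descends from HSP70 and acts as its nucleotide exchange factor, besides holding unfolded proteins itself. HSPA4L was at 8.38, 8.49 and 8.69 without doxycycline, against 8.95, 9.08 and 9.13 with it. HSPH1, known as HSP105, was at 9.38, 9.54 and 9.59, against 9.88, 9.77 and 9.89. HSPA4 was at 8.89, 8.89 and 8.93, against 9.20, 9.11 and 9.29. In each of the 3 genes the highest array without doxycycline lay below the lowest with it. The log2 differences were -0.53 (SE 0.10) for HSPA4L, -0.34 (SE 0.08) for HSPH1 and -0.30 (SE 0.07) for HSPA4. Their limma adjusted p-values were 0.112, 0.184 and 0.175, all outside the threshold. HSPA4L passed when the fit was rerun on fewer probe sets. The limma adjusted p was 0.0299 over named probe sets alone and 0.0494 over probe sets with a mean above 5. All 3 genes were bright, at or above the 92.8th percentile of all probe sets.

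**Figure D2:**
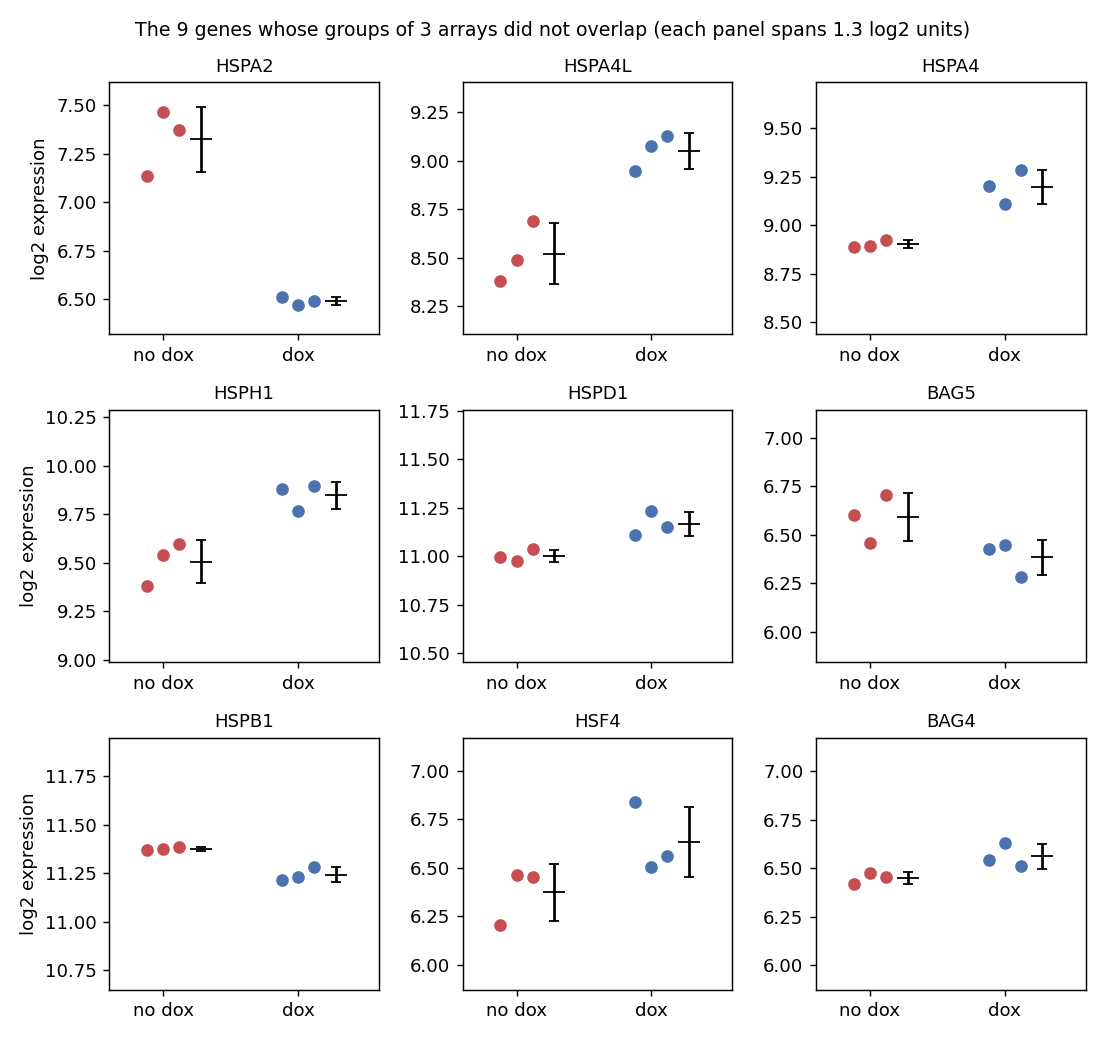
Log2 expression on each array for the 9 genes whose groups did not overlap, with points for arrays (no doxycycline in red on the left, doxycycline in blue on the right) and the mean and SD in black. HSPA2, BAG5 and HSPB1 are higher without doxycycline and the other 6 are lower, and every panel spans 1.3 log2 units so that sizes can be compared.

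Promoter sequences are shown for the genes with the clearest group separation and for HSPD1 and HSPA1A, whose windows hold the inverted repeat below. HSF1 binds inverted repeats of the unit GAA, read GAANNTTC or TTCNNGAA. Each window runs from 250 bases before to 50 bases after the RefSeq start (GRCh38.p14) and is written 5′ to 3′ on the gene's strand, with such pairs in capitals. The windows are HSPA2 at chr14:64540491-64540790 (plus strand), HSPA4L at chr4:127782072-127782371 (plus, 1 of 3 starts and the only one of them with a pair), HSPH1 at chr13:31162339-31162638 (minus), HSPA4 at chr5:133051763-133052062 (plus), HSPD1 at chr2:197499791-197500090 (minus, 1 of 2 starts) and HSPA1A at chr6:31815293-31815592 (plus).
HSPA2 promoter: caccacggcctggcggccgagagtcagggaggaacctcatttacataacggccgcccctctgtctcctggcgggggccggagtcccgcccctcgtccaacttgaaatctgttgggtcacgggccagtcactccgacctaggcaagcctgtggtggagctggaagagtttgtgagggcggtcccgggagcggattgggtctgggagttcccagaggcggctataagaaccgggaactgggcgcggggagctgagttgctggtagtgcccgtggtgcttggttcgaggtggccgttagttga
HSPA4L promoter: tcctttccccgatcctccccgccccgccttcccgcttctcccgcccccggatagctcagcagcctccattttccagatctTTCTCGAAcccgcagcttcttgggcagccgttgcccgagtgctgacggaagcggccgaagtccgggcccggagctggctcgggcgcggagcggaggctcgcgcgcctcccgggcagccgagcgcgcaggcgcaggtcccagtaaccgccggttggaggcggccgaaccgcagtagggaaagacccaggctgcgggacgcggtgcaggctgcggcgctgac
HSPH1 promoter: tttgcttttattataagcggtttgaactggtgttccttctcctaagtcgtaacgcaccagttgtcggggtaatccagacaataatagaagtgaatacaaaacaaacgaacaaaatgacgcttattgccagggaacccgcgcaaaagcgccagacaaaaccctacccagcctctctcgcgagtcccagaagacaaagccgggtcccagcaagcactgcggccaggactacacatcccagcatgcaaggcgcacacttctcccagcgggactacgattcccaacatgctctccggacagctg
HSPA4 promoter: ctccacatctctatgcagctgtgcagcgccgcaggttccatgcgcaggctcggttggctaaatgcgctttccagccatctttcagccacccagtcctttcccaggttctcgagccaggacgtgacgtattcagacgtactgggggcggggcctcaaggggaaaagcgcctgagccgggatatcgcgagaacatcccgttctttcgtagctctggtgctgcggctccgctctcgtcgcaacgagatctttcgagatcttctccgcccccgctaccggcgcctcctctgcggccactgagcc
HSPD1 promoter: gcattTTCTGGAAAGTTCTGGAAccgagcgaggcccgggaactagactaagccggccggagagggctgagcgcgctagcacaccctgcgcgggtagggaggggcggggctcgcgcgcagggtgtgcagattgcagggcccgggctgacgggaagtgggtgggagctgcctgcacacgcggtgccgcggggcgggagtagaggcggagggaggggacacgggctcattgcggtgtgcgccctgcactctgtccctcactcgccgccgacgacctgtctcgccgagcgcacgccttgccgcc
HSPA1A promoter: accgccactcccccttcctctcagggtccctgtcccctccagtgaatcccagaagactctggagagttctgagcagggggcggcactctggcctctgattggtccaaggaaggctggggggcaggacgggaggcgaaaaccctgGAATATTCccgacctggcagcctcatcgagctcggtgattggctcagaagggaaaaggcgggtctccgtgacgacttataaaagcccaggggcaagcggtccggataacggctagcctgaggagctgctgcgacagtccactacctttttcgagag

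HSPD1 held 3 overlapping pairs, which form both runs of 3 units, TTCTGGAAAGTTC and GAAAGTTCTGGAA, with first bases at -245 and -240 from the start. HSPA1A held GAATATTC at -106, and HSPA4L held TTCTCGAA at -170. These letters did not occur in the windows of HSPA2, HSPH1 and HSPA4. Of the 25 genes 20 had a window, and 11 of the 20 held at least 1 pair: BAG2, HSPA1A, HSPA1B, HSPA1L, HSPA4L, HSPA6, HSPA9, HSPB1, HSPB3, HSPB8 and HSPD1. Some genes have more than 1 window. Counted by window, 11 of their 26 (42.3%) held a pair, against 13.5% of all 35116 RefSeq windows. A run of 3 units (GAANNTTCNNGAA on either strand, made of 2 overlapping pairs) occurred in HSPA6 and HSPD1 and in 0.490% of all windows. The HSPA1A and HSPA1L genes are read in opposite directions, their windows share 241 bases, and the GAATATTC is the same in both. The ER stress element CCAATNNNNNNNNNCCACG was in 0 of the 20 genes (0.0769% of all windows). The core of the C/EBP-ATF element, TGATGNAA on either strand, was in 1 of the 20, at another start of HSPA4L (3.62% of all windows). A match describes the letters only.

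Among the other HSP70 genes, none passed the test. The inducible pair HSPA1A and HSPA1B lay slightly below 0, and HSPA6, which also responds to stress, slightly above. HSPA1A and HSPA1B encode nearly identical HSP70 proteins that are the textbook targets of HSF1, and probes cannot be relied on to tell them apart. HSPA1A was at 8.78, 8.78 and 8.92 without doxycycline, against 8.89, 8.83 and 9.16 with it. HSPA1B was at 8.62, 8.68 and 8.77, against 8.73, 8.73 and 8.997. The groups overlapped in both, since array 3 without doxycycline reached into the range of those with it. The differences were -0.14 (95% interval -0.38 to 0.11) and -0.13 (95% interval -0.36 to 0.10). Each gene had 5 probe sets, all 10 of them negative, between -0.18 and -0.13, and 3 of the HSPA1A probe sets had identical values on every array. At 4 of the 10 the groups did not overlap, against 19.3% of all probe sets, and the smallest limma adjusted p was 0.457. As these probe sets may read both genes, the 10 are not separate observations. Without doxycycline-treated replicate 3 the differences of HSPA1A and HSPA1B were both -0.039.

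HSPA1L, the neighbour of HSPA1A with a role in the testis, was at 5.62, 5.50 and 5.47 without doxycycline, against 5.43, 5.37 and 5.50 with it. Its difference was 0.10, and 2 of its 5 probe sets were negative. HSPA6, a human HSP70 that is silent until strong stress, was dim, at 4.95, 4.55 and 4.68, against 4.81, 4.54 and 4.68, and its groups overlapped almost fully. HSPA7, its pseudogene relative, was at 2.79 without and 2.93 with doxycycline, among the dimmest 2.72% of probe sets. HSPA9, the mitochondrial HSP70 also called mortalin, was among the brightest, at 11.25, 11.29 and 11.37, against 11.13, 11.28 and 11.30. Its difference was 0.07 (95% interval -0.11 to 0.25). HSPA14, which works with a J-domain protein at the ribosome, had a difference of 0.05 (95% interval -0.21 to 0.31). The distant relatives HSPA12A and HSPA12B were at -0.11 and -0.19, and HSPA12B had the widest interval of all 25 genes, -0.72 to 0.34. Over the 13 genes of the class the median was -0.13, with 8 negative and 5 positive differences, and it was -0.039 without doxycycline-treated replicate 3.

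**Figure D3:**
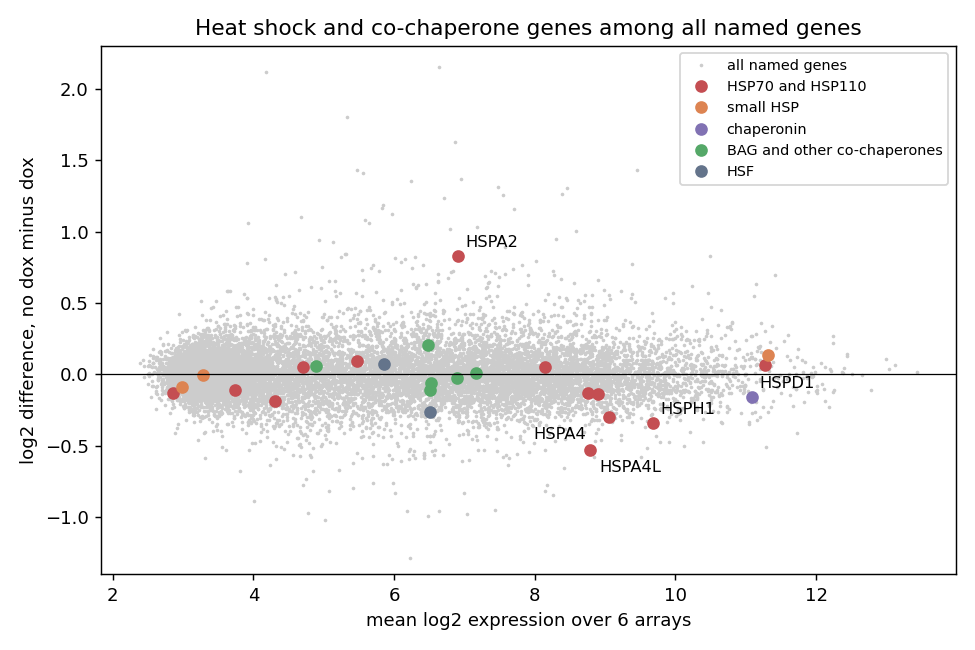
Mean log2 expression over the 6 arrays (horizontal) against the log2 difference, no doxycycline minus doxycycline (vertical), for all 14884 named genes in grey and the 25 heat shock and co-chaperone genes in colour. HSPA2 stands out upward, at the 80.7th percentile of probe sets by level, and the genes with negative differences named in the plot are all brighter.

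HSPD1, the mitochondrial HSP60, was the only chaperonin gene with a named probe set. It was at 10.99, 10.98 and 11.04 without doxycycline, against 11.11, 11.23 and 11.15 with it. The groups did not overlap, but the difference of -0.16 (SE 0.06, 95% interval -0.32 to -0.01) amounted to 1.12-fold and did not pass the test (limma adjusted p = 0.385). HSPA9, its partner in mitochondrial import and folding, had a difference of the other sign. A difference between the 2 genes was not tested.

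The small HSPs had a median difference of -0.003, and only HSPB1 was well expressed. HSPB1, or HSP27, binds unfolded proteins and actin and protects cells from apoptosis. It was at 11.37, 11.38 and 11.39 without doxycycline, against 11.21, 11.23 and 11.29 with it. These groups did not overlap and were tight (SD 0.01 and 0.04), and the difference of 0.13 (95% interval -0.01 to 0.28) had an adjusted p of 0.433 in limma. HSPB8, which works with BAG3 to send clients to autophagy, was at 3.28 in both groups, and HSPB3, a muscle protein, at 2.94 and 3.03. Both lie below the median probe set, where a change could be missed.

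BAG proteins bind the ATPase domain of HSP70 and speed up its release of nucleotide. Of the 6 co-chaperones, 3 had positive and 3 negative differences, with a median of -0.01 and 0 past the test. BAG5, an inhibitor of HSP70 refolding and of the ubiquitin ligase parkin, was at 6.60, 6.46 and 6.71 without doxycycline, against 6.42, 6.45 and 6.28 with it. BAG4, also called SODD for its silencing of death receptors, was at 6.42, 6.48 and 6.45, against 6.54, 6.63 and 6.51. In BAG5 all arrays without doxycycline were the higher ones, and in BAG4 all were the lower ones. The differences were 0.21 (95% interval -0.01 to 0.42) and -0.11 (95% interval -0.27 to 0.04).

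BAG3, a stress-inducible HSF1 target that couples HSP70 to HSPB8, was dim at 4.95, 4.99 and 4.81 without doxycycline, against 4.79, 4.97 and 4.82 with it. Its groups overlapped, and the difference was 0.06 (95% interval -0.14 to 0.26). BAG1, which links HSP70 to the proteasome, was at -0.06, and BAG2, an inhibitor of the ligase STUB1, at 0.01. HSPBAP1, a partner of HSPB1, was at -0.03.

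Neither heat shock factor passed the test. HSF1, the main activator of the response, was at 6.11, 5.68 and 5.88 without doxycycline, against 5.61, 5.84 and 6.01 with it. The arrays were interleaved, at a difference of 0.07 (95% interval -0.27 to 0.41), and HSF1 is known to be controlled mostly at the protein level. HSF4, a factor of lens development, was at 6.20, 6.46 and 6.45, against 6.84, 6.51 and 6.56. Its difference was -0.26 (SE 0.12, limma adjusted p = 0.438), without overlap, while its dimmer probe set gave -0.01 with overlapping groups. Of 14 genes listed as HSF1 targets induced by stress, 7 had a named probe set, and 0 of these passed the test. Differences were negative in 5 (71.4%, against 50.6% of all named genes) and positive in 2, with a median of -0.14. HSPA1A and HSPA1B, whose probes may not tell them apart, count as 2 of the 7. Of these 7, HSPA4L, HSPH1 and HSPD1 (42.9%) were lower at an unadjusted limma p below 0.05, against 5.73% of all probe sets. Of the 7, 0 were higher at that threshold, and in either direction the share of named genes was 14.4%.

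Partners of these chaperones outside the 25 genes showed 0 genes past the adjusted threshold. Of 20 HSP90 co-chaperones listed, 13 had a named probe set, and 11 of these had negative differences (84.6%, against 50.6% of all named genes). The 13 had a median of -0.09, and their groups did not overlap in 2 (15.4%), against 24.6% of named genes. STIP1, which bridges HSP70 and HSP90, was at 6.77, 6.80 and 6.86 without doxycycline, against 6.99, 7.02 and 7.12 with it. Its difference was -0.23 (SE 0.07, limma adjusted p = 0.246), with no overlap between the groups. CHORDC1, an HSP90 partner, was at -0.28 (limma adjusted p = 0.389) with groups that overlapped. STIP1 and CHORDC1 were the 2 of 13 (15.4%) with an unadjusted limma p below 0.05. The share was 12.4% of all probe sets and 14.4% of named genes. PIH1D1 and PTGES3 (p23) were the 2 with positive differences, at 0.04 and 0.02.

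Of 9 HSP70 partners listed, 3 had a named probe set. HSCB, a mitochondrial J-domain protein of iron-sulfur cluster assembly, was at 6.49, 6.72 and 6.32 without doxycycline, against 6.12, 6.23 and 6.06 with it. Its groups did not overlap, and the difference was 0.38 (SE 0.11, limma adjusted p = 0.256). ST13, or HIP, which steadies HSP70 on its client, was at -0.31 (SE 0.15), and GAK, an auxilin relative, at -0.08. Of 13 prefoldin subunits and phosducin-like or tubulin-folding cofactors, which work beside the cytosolic chaperonin, 10 were negative (76.9%, against 50.6% of all named genes). The median of the 13 was -0.04, and the groups did not overlap in 2 of them (15.4%), against 24.6% of named genes. The 2 with the smallest p were PDCL at -0.26 and PFDN4 at -0.22 (limma adjusted p = 0.399 and 0.401), and on the positive side TBCC and PFDN6 were at 0.16 and 0.02. Of 10 other chaperones, 4 had a named probe set. HYOU1, an HSP110 relative in the endoplasmic reticulum that belongs to the unfolded protein response, was at 0.19 (SE 0.07, limma adjusted p = 0.348). CLPX was at 0.04, the mitochondrial HSP90 TRAP1 at -0.13 and CLPB at -0.002.

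**Figure D4:**
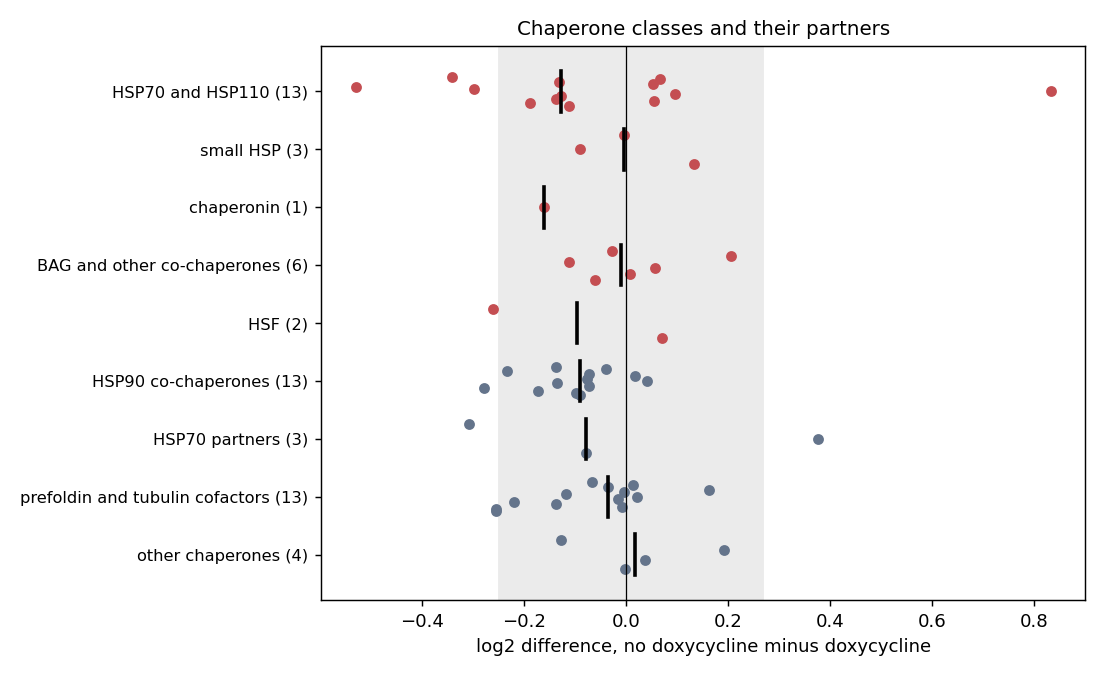
Log2 differences, no doxycycline minus doxycycline, of the 25 genes by class (red) and of the partner lists (grey-blue), with the median of each row as a black bar and the number of genes in brackets. The shaded band runs from the 5th to the 95th percentile of all named genes (-0.25 to 0.27), and HSPA2, the HSP110 genes, HSF4, CHORDC1, ST13, PDCL, PDCL3 and HSCB lie outside it.

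Precision was set by the number of arrays. Over the 25 genes the SD within a group had a median of 0.08 without and 0.09 with doxycycline, and the 95% interval of a difference reached 0.21 to either side in the median gene, from 0.14 in HSPB1 to 0.53 in HSPA12B.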

How the data were processed

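Total RNA from 6 samples was hybridised to 6 Affymetrix arrays. The deposited values were log2 expression values per probe set, brought to a common scale by the authors. Partek was used, per the submitters' processing notes. How background was corrected and arrays were normalized, and the genome build, is not given in the sources used; log2 was read from the range, 2.12 to 14.3. The design text calls the samples independent without naming separate cultures, so p-values measure the spread between these samples.

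Gene names came from GEO's annotation of the platform, where 16098 of 53617 had 1 symbol, 0 had several and 37519 had none. All 16098 gene identifiers were found in RefSeq GRCh38.p14, which changed 0 symbols. Genome positions are given for RefSeq promoters only. Promoter windows come from RefSeq; protein sequences were not used here.

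The fit covered the whole table (limma 3.58.1 under R 4.3.3; lmFit, eBayes; no doxycycline minus doxycycline; no covariate, no filter), with Benjamini-Hochberg adjustment and a threshold of 0.05. Errors are SE of the moderated fit or SD of 3 arrays. An exact permutation test of 3 against 3 arrays cannot go below 0.1. The script was tested on simulated data. The genes, lists and tests were chosen with earlier results of these data known. Named were all genes with an unadjusted p below 0.05, the main inducible chaperones, and in partner lists the 2 smallest p in each direction. Alternatives were other moderation, scaling, filters, probe set rules, a replicate block and leaving out each array.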

Additional observations from a re-analysis of the deposited data

How the results depend on the processing

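The log2 difference of HSPA2 was between 0.76 and 0.93 under all 13 alternatives, and it passed in 6 of them (limma adjusted p between 0.00459 and 0.172 over the 13). With each array left out in turn, 0 genes were higher and 0 lower past the threshold. With only named probe sets, 1 gene, HSPA4L, was lower past the threshold (limma adjusted p = 0.0299). It was also the only 1 lower without probe sets of a mean below 5 and with the mean of a gene's probe sets (0.0494 and 0.0276). In these settings the moderation was refitted and the adjustment covered fewer features. With the replicate number as a block, 0 genes were higher, HSPA2 was at 0.83 (adjusted p = 0.172), KDM4C at 1.27 (adjusted p = 0.118), and 0 of all probe sets passed against 183 without the block. Same-numbered arrays did not deviate together over all probe sets (r = -0.012, -0.014 and 0.041). The labels do not say what they share besides the number. KDM4C kept to 1.24 to 1.29 with an array left out, and its adjusted p was then 0.0311 to 0.0696.

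The median of the HSF class was at -0.032 with the mean of a gene's probe sets, since the dimmer HSF4 probe set was near 0. The small HSP median was 0.13 without dim probe sets, which leaves HSPB1 alone. Genes near 0 changed sign: BAG2 was at -0.0070 with arrays centred on their median and between -0.090 and 0.063 with an array left out, HSF1 between -0.039 and 0.17, HSPA14 between -0.051 and 0.14, HSPA6 between -0.059 and 0.14, HSPB8 between -0.055 and 0.030 and HSPBAP1 between -0.092 and 0.019. The HSP90 and HSP40 medians were not run, as no gene matching the rule for them had a named probe set.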

Other observations

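Genes beside the 5 with an unadjusted p below 0.05 were looked up after those values were seen, taking the 2 nearest protein-coding genes of RefSeq on each side. Beside HSPA2 on chromosome 14, ZBTB1 was at 7.37 without and 7.46 with doxycycline (log2 difference -0.10) and AKAP5 at 4.74 and 4.69 (0.05). Beside HSPA4L on chromosome 4, PLK4, a kinase of centriole duplication, was at 8.28 and 8.23 (0.05), and INTU, a cilium protein, at 5.74 and 5.96 (-0.22, limma adjusted p = 0.243). Beside HSPH1 on chromosome 13, TEX26, MEDAG and RXFP2 were all below the median probe set, with differences of -0.02, -0.10 and -0.002. Beside HSPA4 on chromosome 5, C5orf15 was at 0.18 and FSTL4 at -0.14, and beside HSPD1 on chromosome 2, COQ10B was at 0.01. None of these 10 neighbours passed limma's adjusted threshold. INTU and C5orf15, 2 of the 10, had an unadjusted limma p below 0.05, against 12.4% of all probe sets and 14.4% of named genes. The other neighbours had no named probe set.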
